A study of Mus musculus with 48 samples.

Results

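Resident macrophages of the mouse liver, the Kupffer cells, are marked by the 9 genes described here: Clec4f, Timd4, Cd5l, Vsig4, Marco, Cd163, Folr2, Adgre1 and Siglec1. They were taken by gene symbol from a matrix of 29221 genes, and each of the 9 was found in each of the 11 deposited tables. RNA-seq was done on the whole livers of 48 mice in 10 groups. All mice carried floxed Pparg alleles, and all received an AAV8 virus with the hepatocyte promoter TBG after 16 weeks of diet: AAV8-TBG-Cre in the groups labelled hepatocyte-specific knockout of PPARγ, and AAV8-TBG-null in the controls, so that control mice were also infected. In males, 6 controls and 6 labelled knockouts ate a high fat (HF) diet for 34 weeks. Another 6 controls and 6 labelled knockouts ate the HF diet for 18 weeks and then a high fat diet with added cholesterol and fructose (HFCF) for 16 weeks. In females there were 4 controls and 4 labelled knockouts on each of the same HF and HFCF regimens, and 4 and 4 on a low fat (LF) control diet for 34 weeks. There was no LF group of males. The labels call the LF livers healthy, the HF livers steatotic and the HFCF livers non-alcoholic steatohepatitis. They give no ages beyond adult.

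Kupffer cells line the liver sinusoids, where they take up bacteria, dying cells, lipoproteins and old red cells. Most are seeded before birth and renew themselves locally. Macrophages that arise from blood monocytes when the niche is refilled are known to gain Clec4f early, and Timd4 late or not at all. Clec4f encodes a galactose-binding C-type lectin found on mouse Kupffer cells, and Timd4 encodes TIM-4, a receptor for phosphatidylserine on dying cells. Cd5l encodes AIM, a secreted scavenger protein and a target of the liver X receptor. Vsig4 encodes the complement receptor CRIg. Marco is a class A scavenger receptor, and Cd163 takes up haemoglobin bound to haptoglobin. Folr2 encodes folate receptor beta. Adgre1 encodes F4/80, which most mouse tissue macrophages carry whatever their origin, and Siglec1 encodes the sialic acid receptor CD169.

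The promoter windows of 7 of the 9 members were in RefSeq's table for GRCm38.p6, each from 250 bases before to 50 bases after a transcription start. They were searched on both strands for 3 motifs of factors that act in Kupffer cells: GAGGAAG, the core of the PU.1 and SpiC site, TGCTGA, a MAF half-site, and TGGGAA, the RBPJ core. Of 32851 windows in the table, 13.6% held the first, 19.5% the second and 25.6% the third. The windows of 4 members are printed, chosen because their RNA levels followed different courses across the diets: Clec4f did not pass a test between diets, Cd5l was higher on the HFCF diet, and Timd4 and Marco had lower means there and varied together from liver to liver. Each is written 5′ to 3′ on the strand of its gene, and capitals mark the motif matches on either strand, none of which overlapped another.
Clec4f, chr6:83656067-83656366, minus strand: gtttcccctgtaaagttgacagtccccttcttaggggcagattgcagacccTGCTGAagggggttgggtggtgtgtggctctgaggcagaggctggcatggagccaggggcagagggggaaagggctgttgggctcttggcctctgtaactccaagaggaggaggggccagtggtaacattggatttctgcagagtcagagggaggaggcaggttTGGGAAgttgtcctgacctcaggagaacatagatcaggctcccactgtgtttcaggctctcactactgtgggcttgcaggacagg
Cd5l, chr3:87357631-87357930, plus strand: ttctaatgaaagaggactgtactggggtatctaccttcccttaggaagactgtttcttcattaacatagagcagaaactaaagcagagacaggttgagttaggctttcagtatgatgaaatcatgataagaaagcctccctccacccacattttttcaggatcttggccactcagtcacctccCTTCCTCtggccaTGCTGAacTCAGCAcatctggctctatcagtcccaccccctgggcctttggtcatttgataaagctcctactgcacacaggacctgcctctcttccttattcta
Timd4, chr11:46810549-46810848, plus strand: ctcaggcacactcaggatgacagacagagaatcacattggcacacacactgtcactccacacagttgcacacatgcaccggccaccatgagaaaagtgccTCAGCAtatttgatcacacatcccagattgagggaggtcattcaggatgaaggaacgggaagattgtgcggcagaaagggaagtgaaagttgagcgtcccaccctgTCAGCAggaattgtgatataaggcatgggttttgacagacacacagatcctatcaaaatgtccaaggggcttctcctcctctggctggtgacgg
Marco, chr1:120504975-120505274, minus strand: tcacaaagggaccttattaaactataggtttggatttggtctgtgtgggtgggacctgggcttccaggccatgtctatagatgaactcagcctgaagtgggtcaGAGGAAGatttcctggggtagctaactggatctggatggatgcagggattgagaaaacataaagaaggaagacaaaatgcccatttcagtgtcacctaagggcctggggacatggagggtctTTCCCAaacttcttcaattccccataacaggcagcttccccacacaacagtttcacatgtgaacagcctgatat
In the Cd5l window the PU.1 and SpiC match began 67 bases before the start, and 2 MAF half-sites followed, 54 and 46 bases before it. Marco's PU.1 and SpiC match lay 146 bases before the start and its RBPJ match 24 bases before it. Timd4 had MAF half-sites 150 and 44 bases before the start. Clec4f had a MAF half-site at 199 bases and an RBPJ match at 35 bases before its start. Of the members not printed, Vsig4 and each of the 2 Folr2 windows held 1 MAF half-site and no other match, and the Cd163 window held no match. A match describes the letters of the window, not a bound site.

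The libraries held 15338239 to 22072884 reads on genes. As a check of the labels, Pparg was not lower in the labelled knockouts: the means were 34.3 CPM (the count scaled to library size) in male HF controls and 41.2 CPM in the labelled knockouts, 32.0 and 55.9 CPM in HFCF males, 10.5 and 15.6 CPM in LF females, 18.6 and 28.8 CPM in HF females, and 23.7 and 46.0 CPM in HFCF females. A count over the whole gene does not show whether single exons were deleted, and the genotype is therefore called labelled knockout. Some livers stood apart from their groups. The labelled-knockout HFCF female 1 had the lowest rank correlation with its group (a median Spearman value of 0.962, against up to 0.992). Male HFCF control 1 had a summed monocyte and lipid-associated macrophage signal of 309 CPM, where the other 5 had 818 to 955 CPM. Female HF control 1 had 457 CPM of the same sum, where the other 3 had 64.3 to 134 CPM. The labelled-knockout HF female 3 had 96.4 CPM of summed neutrophil and eosinophil genes, where the other 3 had 6.33 to 8.77 CPM. Where a call on a member, or a count over a gene list by over 1.5 times, changed without one of these 4 livers, both values are given. LF control female 1 was not among the 4, though its median Spearman value of 0.973 was also low. Labelled-knockout HF female 3 and male HFCF control 1 both had 0.975. The gene list counts were not repeated without LF control female 1.

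The members spanned a wide range of levels. On the authors' FPKM scale, which divides by gene length and so allows genes to be compared, the median over 48 livers was 78.0 for Cd5l and 53.3 for Clec4f. Vsig4 followed with 20.3 and Adgre1 with 9.29 FPKM. The other 5 were low: 2.94 FPKM for Siglec1, 2.62 for Marco, 2.11 for Folr2, 1.58 for Timd4 and 1.42 for Cd163. The members also differed in how evenly they were expressed from liver to liver. Clec4f CPM spanned 4.92-fold over the 48 livers, Folr2 5.17-fold, Cd5l 5.39-fold, Siglec1 5.69-fold and Adgre1 6.39-fold. Vsig4 spanned 13.3-fold. Timd4 spanned 62.7-fold, Cd163 201-fold and Marco 911-fold. The lowest libraries of these 3 held 5, 4 and 3 reads of the gene, so their low values carry a large counting error.

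**Figure D1:**
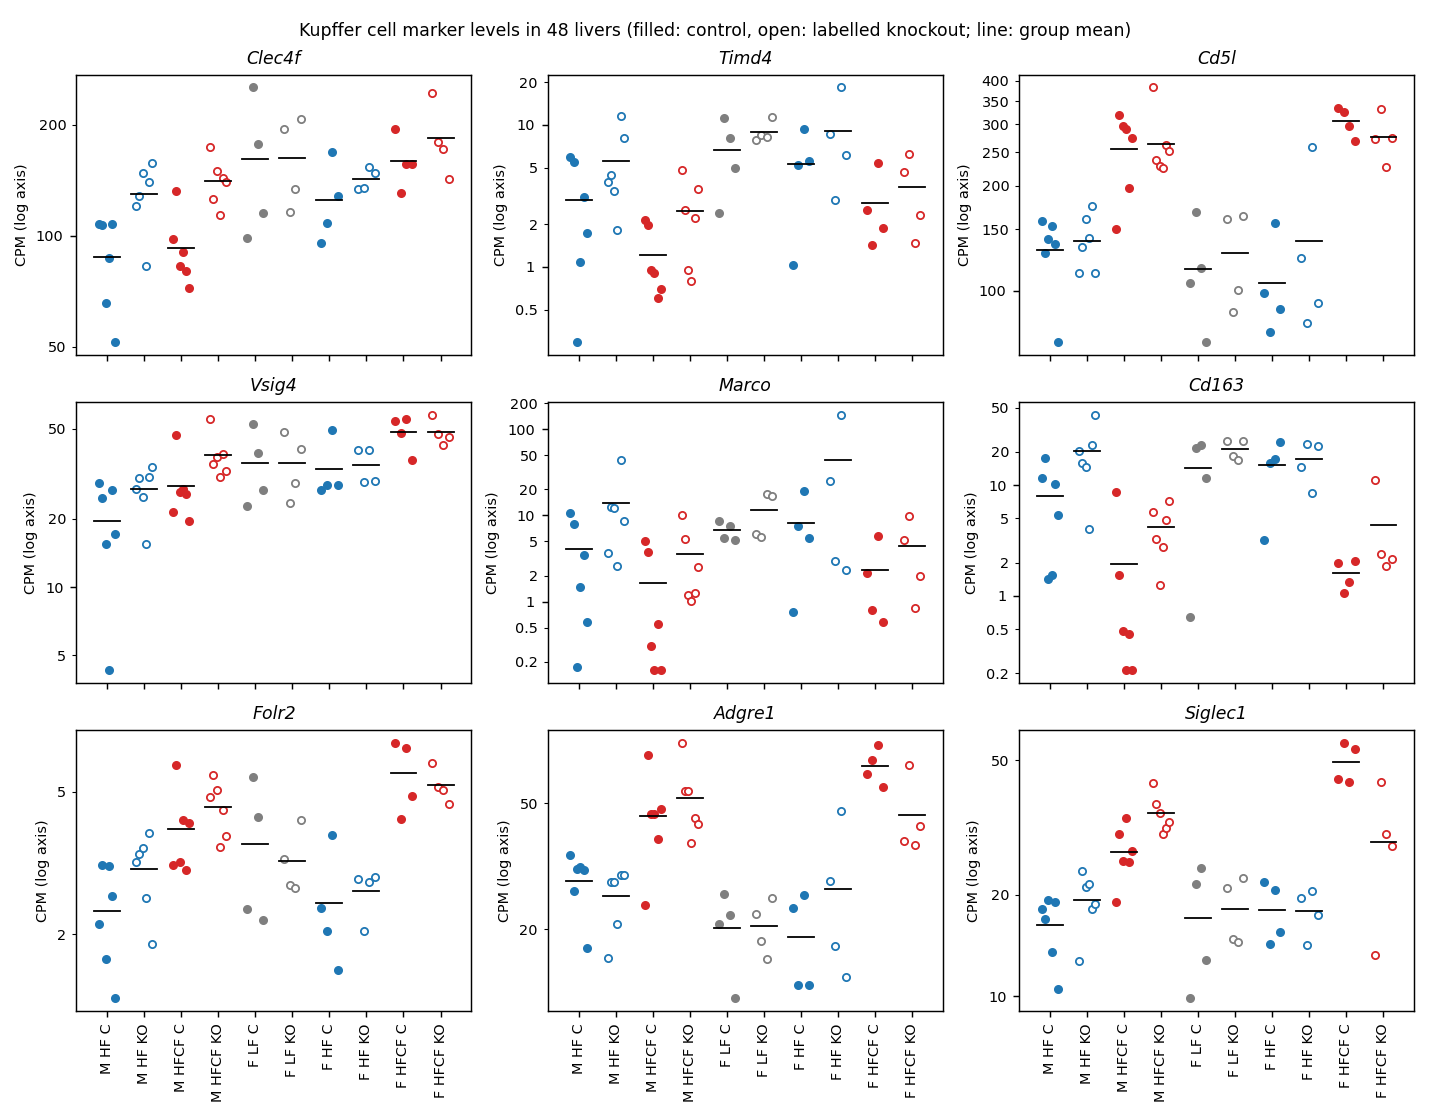
CPM (log axis) of each of the 9 members in each of the 48 livers, by sex, diet (LF grey, HF blue, HFCF red) and genotype (C control, KO labelled knockout), with the group mean as a line. Adgre1, Siglec1 and Cd5l are high in the HFCF groups, Cd163 is low there, and the Clec4f groups overlap widely.

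The HFCF diet was first compared with the HF diet, which sets livers labelled steatohepatitis against livers labelled steatosis. Mean levels of Adgre1, Siglec1, Cd5l and Folr2 were higher in HFCF livers, and those of Cd163, Timd4 and Marco lower, in each sex and genotype, though not each passed the test. In control males, 4 members rose and 0 fell at an adjusted p under 0.05 (edgeR's quasi-likelihood test, Benjamini-Hochberg over all genes tested), where 13.0% of all tested genes rose and 9.31% fell. In labelled-knockout males 5 rose and 3 fell, against 21.6% and 20.0% of all genes. In control females 4 rose and 1 fell, against 16.9% and 13.8%. In labelled-knockout females 1 rose and 1 fell, against 8.44% and 6.01%. Timd4, Marco and Cd163 had log2 differences below 0 in all 4 comparisons, and the other 6 had differences above 0 in all 4. The median over the 9 members ran from 0.47 to 0.55, while the median over all tested genes ran from -0.02 to 0.01. In whole-liver RNA, fewer cells of a type and less RNA per cell cannot be told apart.

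**Figure D2:**
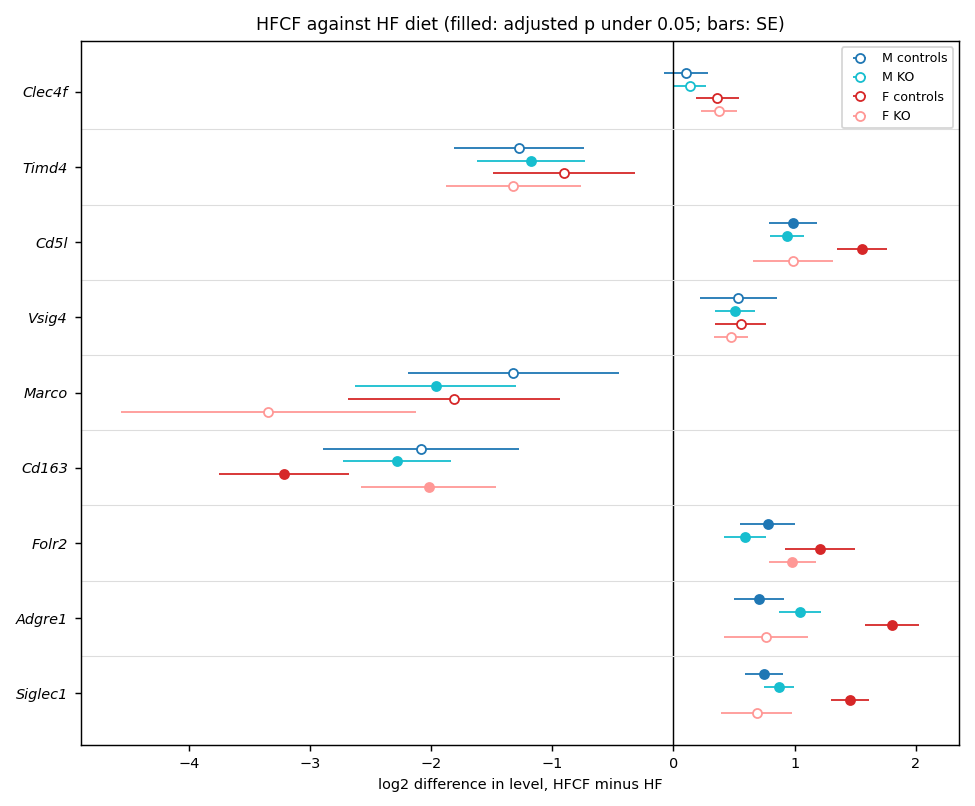
Log2 difference in level, HFCF minus HF, with its SE, for the 9 members in the 4 comparisons by sex and genotype. Filled points passed an adjusted p of 0.05. Timd4, Marco and Cd163 lie left of 0 in each comparison, and Cd5l, Folr2, Adgre1 and Siglec1 lie right of it.

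Adgre1 (ENSMUSG00000004730, GRCm38 chromosome 17, 57358691 to 57483527, plus strand), the F4/80 gene, measured 13.3 to 25.7 CPM in the 4 HF control females (23.3, 13.3, 25.7 and 13.4 CPM) and 62.1, 68.5, 76.2 and 56.5 CPM in the 4 HFCF control females. The groups did not overlap, and the means differed 3.48-fold (log2 difference 1.81, SE 0.22, adjusted p 0.00447). In labelled-knockout males the HF livers ran from 16.3 to 29.7 CPM (median 28.2) and the HFCF livers from 37.4 to 77.7 CPM (median 49.8). Those groups did not overlap either, with a log2 difference of 1.05 (SE 0.17, adjusted p 0.00023). In control males the HF livers held 17.4 to 34.2 CPM (median 30.8) and the HFCF livers 23.9 to 70.9 CPM (median 46.2), the lowest being HFCF control 1. Adgre1 rose there by 0.71 on the log2 scale (SE 0.21, adjusted p 0.0244). That call was lost without HF control 2, HF control 6 or HFCF control 2, where the adjusted p was 0.052, 0.0502 and 0.0567 and the log2 difference 0.68, 0.59 and 0.54. In labelled-knockout females the HF values were 28.3, 17.8, 47.4 and 14.1 CPM and the HFCF values 38.2, 66.0, 37.1 and 42.5 CPM. They overlapped only through HF liver 3, and the log2 difference of 0.77 (SE 0.35) had an adjusted p of 0.167. Without that liver it was 1.20, with an adjusted p of 0.0167.

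Siglec1 (ENSMUSG00000027322, chromosome 2, 131069220 to 131086765, minus strand), the CD169 gene, followed Adgre1. In control females it measured 21.7, 14.2, 20.7 and 15.5 CPM on the HF diet and 43.9, 56.3, 43.1 and 54.0 CPM on the HFCF diet, with no overlap and a log2 difference of 1.46 (SE 0.16, adjusted p 0.00446). In control males the medians were 17.5 CPM (10.5 to 19.3) and 26.0 CPM (19.0 to 33.8), and the log2 difference was 0.75 (SE 0.15, adjusted p 0.00404). In labelled-knockout males the medians were 19.9 CPM (12.7 to 23.4) and 33.9 CPM (30.2 to 42.7), with no overlap and a log2 difference of 0.87 (SE 0.12, adjusted p 6.32e-05). These 3 calls held with each liver left out in turn. Labelled-knockout females gave 19.5, 14.2, 20.5 and 17.4 CPM on the HF diet and 13.2, 43.2, 30.2 and 27.8 CPM on the HFCF diet. HFCF liver 1 was the lowest of the 8 while the other 3 lay above every HF liver. The log2 difference was 0.69 (SE 0.29, adjusted p 0.144) with that liver and 0.93 (adjusted p 0.00436) without it.

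Cd5l (ENSMUSG00000015854, chromosome 3, 87357881 to 87371073, plus strand), whose promoter window is printed above, had a higher mean CPM on the HFCF diet in each sex and genotype. In control females the HF livers held 98.6, 76.4, 157 and 88.5 CPM and the HFCF livers 335, 326, 296 and 268 CPM. The lowest HFCF liver was above the highest HF liver, and the log2 difference was 1.55 (SE 0.21, adjusted p 0.00484). Control males went from a median of 138 CPM (71.1 to 158) to 282 CPM (150 to 320), a log2 difference of 0.98 (SE 0.20, adjusted p 0.0037). Labelled-knockout males went from 138 CPM (112 to 175) to 244 CPM (225 to 383), with no overlap and a log2 difference of 0.94 (SE 0.14, adjusted p 8.94e-05). In labelled-knockout females the values were 124, 80.9, 259 and 92.5 CPM, then 272, 332, 226 and 274 CPM. HF liver 3 again reached the HFCF range. The log2 difference of 0.99 (SE 0.33, adjusted p 0.0732) became 1.48 (adjusted p 0.00191) without it.

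Folr2 (ENSMUSG00000032725, chromosome 7, 101839988 to 101857194, minus strand), the folate receptor gene, was low but was the 1 member that passed the test in all 4 HFCF against HF comparisons. Reads were not assigned by strand, and the predicted gene Gm10602 overlaps Folr2 on the plus strand with up to 37 reads in a library. Reads over both genes cannot be placed by strand, and the effect of the overlap on the Folr2 count was not tested. Control females measured 2.36, 2.04, 3.80 and 1.59 CPM on the HF diet and 6.86, 4.20, 6.64 and 4.85 CPM on the HFCF diet (log2 difference 1.21, SE 0.29, adjusted p 0.0146). Labelled-knockout females measured 2.85, 2.04, 2.79 and 2.88 CPM, then 6.03, 5.17, 5.05 and 4.64 CPM (0.98, SE 0.19, adjusted p 0.0102). Neither pair of female groups overlapped. Male medians went from 2.34 CPM (1.33 to 3.12) to 3.64 CPM (3.03 to 5.96) in controls, with a log2 difference of 0.78 (SE 0.23, adjusted p 0.0257). They went from 3.27 CPM (1.88 to 3.84) to 4.64 CPM (3.51 to 5.59) in labelled knockouts, with 0.59 (SE 0.18, adjusted p 0.014). The call in control males was lost without HF control 3 or 6 or HFCF control 2 or 4, where the adjusted p was 0.052, 0.0525, 0.0644 and 0.0541 and the log2 difference 0.70, 0.65, 0.62 and 0.76.

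Vsig4 (ENSMUSG00000044206, chromosome X, 96247203 to 96293438, minus strand), the complement receptor gene, moved less. Its log2 difference lay between 0.47 and 0.55 in the 4 comparisons. It passed the test in labelled-knockout males (0.51, SE 0.17, adjusted p 0.022), where the median went from 28.7 CPM (15.5 to 33.9) to 36.3 CPM (30.5 to 55.0); without HFCF liver 1 of that group the adjusted p was 0.059 and the log2 difference 0.38. It did not pass in control males (adjusted p 0.247), control females (0.0707) or labelled-knockout females (0.0513). In labelled-knockout females the groups did not overlap all the same, with 40.2, 29.1, 40.2 and 29.5 CPM on the HF diet and 57.4, 47.5, 42.1 and 46.1 CPM on the HFCF diet. Without HF liver 3 the log2 difference there was 0.56 (adjusted p 0.0318).

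Cd163 (ENSMUSG00000008845, chromosome 6, 124304656 to 124330527, plus strand), the haemoglobin scavenger receptor gene, had the largest fall of the members that passed the test, in each of the 3 comparisons where it passed. In control females it measured 3.17, 15.9, 17.3 and 24.4 CPM on the HF diet and 1.97, 1.06, 1.34 and 2.08 CPM on the HFCF diet. The groups did not overlap, and the log2 difference was -3.21 (SE 0.54, adjusted p 0.00584). In labelled-knockout males the HF livers held 4.04 to 43.0 CPM (median 18.2) and the HFCF livers 1.25 to 7.21 CPM (median 4.06), a log2 difference of -2.28 (SE 0.45, adjusted p 0.00086). In control males HFCF liver 1 stood at 8.75 CPM, while the other 5 held 0.214 to 1.55 CPM and the HF livers 1.41 to 17.5 CPM (median 7.79). The log2 difference was -2.09 (SE 0.81, adjusted p 0.0767) with that liver and -3.73 (adjusted p 0.000594) without it. In labelled-knockout females the values were 14.5, 23.5, 8.43 and 22.7 CPM on the HF diet and 11.2, 2.38, 1.88 and 2.16 CPM on the HFCF diet. Liver 1 was again the exception, and the log2 difference was -2.02 (SE 0.56, adjusted p 0.0377) with it and -2.98 (adjusted p 0.000736) without it. The call in that group was lost without any one of 6 of the other 7 livers, every one but HF liver 3, with an adjusted p of up to 0.111.

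Timd4 (ENSMUSG00000055546, chromosome 11, 46810800 to 46844332, plus strand), the TIM-4 gene, had lower means on the HFCF diet in each sex and genotype, and passed the test in labelled-knockout males. There the HF livers held 1.83 to 11.6 CPM (median 4.19) and the HFCF livers 0.797 to 4.83 CPM (median 2.37), a log2 difference of -1.18 (SE 0.45, adjusted p 0.0452). That call held in 5 of 12 fits with 1 liver left out, and without HF liver 5, the highest, the log2 difference was -0.82 (adjusted p 0.147). The other 6 fits that lost it left out HF liver 2 or 6 or HFCF liver 2, 3, 4 or 5, and over the 12 fits the log2 difference ran from -1.48 to -0.82. The authors' deposited adjusted p for Timd4 in these males was 0.0841. In control males the medians were 2.41 CPM (0.294 to 5.96) and 0.933 CPM (0.605 to 2.14), with a log2 difference of -1.27 (SE 0.54, adjusted p 0.101), and -1.49 (adjusted p 0.044) without HFCF liver 1. Control females measured 1.04, 5.20, 9.40 and 5.57 CPM, then 2.52, 1.42, 5.41 and 1.87 CPM (log2 difference -0.90, SE 0.59, adjusted p 0.261). Without HF liver 1, the lowest of those 8, it was -1.25 (adjusted p 0.032). Labelled-knockout females measured 8.66, 2.96, 18.4 and 6.19 CPM, then 4.63, 6.26, 1.48 and 2.32 CPM (-1.32, SE 0.56, adjusted p 0.14).

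Marco (ENSMUSG00000026390, chromosome 1, 120474538 to 120505024, minus strand), the scavenger receptor gene whose level tracked Timd4, was the most uneven member. The labelled-knockout HF females held 25.0, 2.96, 146 and 2.32 CPM and the HFCF females of that genotype 5.15, 9.74, 0.841 and 1.96 CPM. HF liver 3, at 146 CPM, carried the mean: the log2 difference was -3.34 (SE 1.22, adjusted p 0.0938) with it and -1.21 (adjusted p 0.381) without it. In labelled-knockout males the HF livers held 2.59 to 44.4 CPM (median 10.4) and the HFCF livers 1.01 to 10.2 CPM (median 1.90), and Marco fell there by 1.96 on the log2 scale (SE 0.67, adjusted p 0.0271). Without HF liver 5, at 44.4 CPM, the difference was -1.13 (adjusted p 0.131), and the call was also lost without HFCF liver 3, 4, 5 or 6, with an adjusted p of up to 0.131 in all these fits. In control males the medians were 2.50 CPM (0.176 to 10.8) and 0.43 CPM (0.16 to 5.08), with a log2 difference of -1.32 (SE 0.87, adjusted p 0.296). Control females measured 0.75, 7.62, 19.2 and 5.45 CPM, then 2.17, 0.809, 5.72 and 0.586 CPM (-1.81, SE 0.87, adjusted p 0.138, and -2.20 with an adjusted p of 0.0214 without HF liver 1).

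Clec4f (ENSMUSG00000014542, chromosome 6, 83644542 to 83656187, minus strand), a lectin gene largely restricted to Kupffer cells in mice, passed the test in none of the 4 comparisons in the fits of all livers. Its log2 difference was 0.11 (SE 0.18, adjusted p 0.722) in control males, 0.14 (SE 0.13, adjusted p 0.422) in labelled-knockout males, 0.36 (SE 0.18, adjusted p 0.148) in control females and 0.37 (SE 0.15, adjusted p 0.121) in labelled-knockout females. Control females measured 95.3, 109, 168 and 128 CPM on the HF diet and 195, 130, 156 and 157 CPM on the HFCF diet, with overlap; without HF liver 3 the difference there was 0.54 (adjusted p 0.0434). Control males ran from 51.3 to 108 CPM (median 96.9), then from 72.4 to 132 CPM (median 86.7). A p that misses the threshold does not show that the level was the same.

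Clec4f and Timd4 were then set against Adgre1 within each liver, as the difference of log2(CPM + 0.5), with 2-sided exact permutation tests and Benjamini-Hochberg adjustment over the 8 tests. The ratios set these Kupffer cell markers, the first gained early and the second late by monocyte-derived cells, against a general macrophage gene, which itself had a higher mean on the HFCF diet. In labelled-knockout males the Clec4f ratio was 2.33 ± 0.30 on the HF diet and 1.46 ± 0.23 on the HFCF diet (mean and SD, n = 6 each, exact permutation p 0.00216, adjusted 0.00866). The Timd4 ratio was -2.27 ± 0.71 and -4.28 ± 0.67 in the same livers (n = 6 each), with the same exact p, which is the smallest that 6 against 6 allow. Neither ratio overlapped between those groups, and the differences were 1.83-fold and 4.02-fold lower on the HFCF diet. In control females the Clec4f ratio was 2.72 ± 0.52 and 1.27 ± 0.34 (n = 4 each, no overlap, exact permutation p 0.0286, adjusted 0.0571). That p is the smallest that 4 against 4 allow. The Timd4 ratio in control females was -1.96 ± 1.33 and -4.46 ± 0.61 (n = 4 each, exact permutation p 0.0571, adjusted 0.0653), the overlap being HF liver 1. In labelled-knockout females the Timd4 ratio was -1.63 ± 0.56 and -3.60 ± 0.60 without overlap (n = 4 each, exact permutation p 0.0286, adjusted 0.0571). Their Clec4f ratio was 2.53 ± 0.73 and 2.01 ± 0.54 (n = 4 each, exact permutation p 0.286, adjusted 0.286). In control males the differences were -0.52 for Clec4f (exact permutation p 0.0541) and -1.37 for Timd4 (exact permutation p 0.0411), both with an adjusted p of 0.0653. All 8 differences were below 0, and 2 of 8 passed after adjustment.

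**Figure D3:**
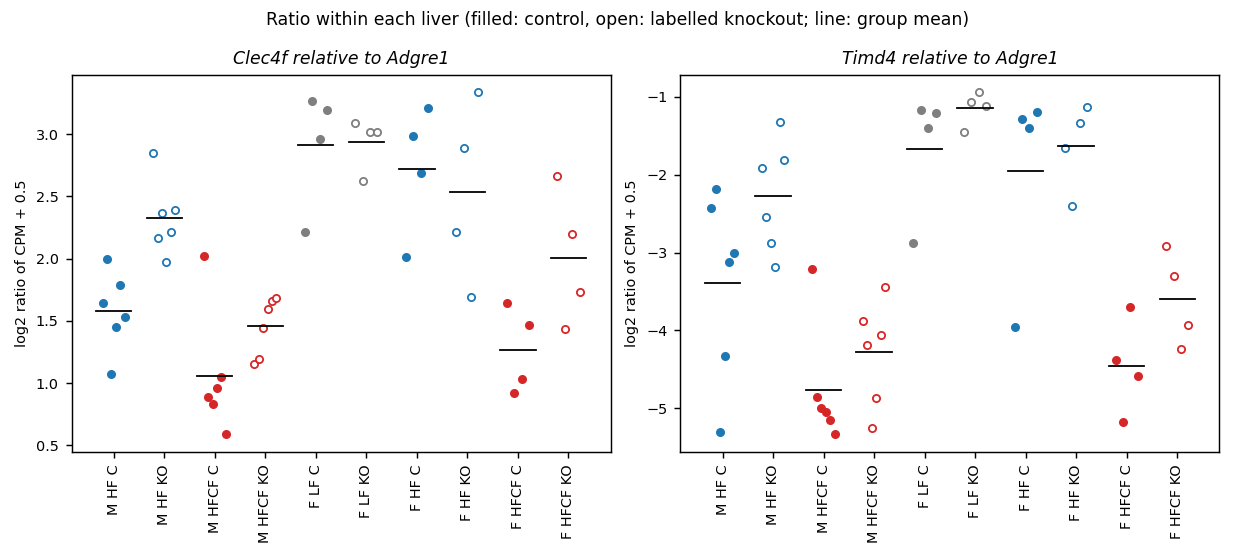
Difference of log2(CPM + 0.5) between Clec4f (left) or Timd4 (right) and Adgre1 in each of the 48 livers, with the group mean as a line. The mean of each HFCF group (red) is below that of the HF group (blue) of the same sex and genotype, with a mean Timd4 ratio of -2.27 against -4.28 in labelled-knockout males.

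The other macrophage genes gave the setting of these shifts. The shares of all tested genes given above for the 4 comparisons apply to the lists here. Of 16 genes common to macrophages, 15 rose on the HFCF diet in control males, 15 in labelled-knockout males, 15 in control females and 7 in labelled-knockout females, and 0 fell. Without HF liver 3, 14 rose in labelled-knockout females. The median log2 differences were 1.0, 1.01, 1.5 and 0.81. In control males Lyz2, the lysozyme gene, rose by 1.32 on the log2 scale (SE 0.18, adjusted p 0.000634) and Cd68, a lysosomal protein of macrophages, by 1.11 (SE 0.16, adjusted p 0.00105). Of the markers of monocytes and of lipid-associated macrophages, 12 of 15 tested rose in control males, 13 of 14 in labelled-knockout males, 13 of 15 in control females and 9 of 15 in labelled-knockout females, with medians of 1.60, 1.96, 2.07 and 1.92. Gpnmb, a lysosomal glycoprotein gene of lipid-laden macrophages, rose by 2.69 (SE 0.33, adjusted p 0.000292) in control males and 3.79 (SE 0.24, adjusted p 1.49e-07) in labelled-knockout males. Their summed level had a median of 289 CPM in HF control males and 896 CPM in HFCF control males, and of 114 and 899 CPM in control females. The part of these cells in the levels of the 9 members was not tested.

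From the HF to the HFCF diet, 13.0% of all tested genes rose in control males and 21.6% in labelled-knockout males. In control and labelled-knockout females 16.9% and 8.44% rose. In the same order of comparisons, 9.31%, 20.0%, 13.8% and 6.01% of all tested genes fell. Further genes known from Kupffer cells were counted in the same way. Of 15 tested in males, 5 rose and 1 fell in controls and 9 rose and 3 fell in labelled knockouts. Of 16 tested in females, 12 rose and 0 fell in controls and 3 rose and 0 fell in labelled knockouts. The medians were 0.38, 0.39, 0.97 and 0.37. Without HFCF liver 1, 10 rose and 2 fell in control males. Without HF liver 1, 12 rose and 2 fell in control females. In labelled-knockout females 7 rose and 0 fell without HF liver 3, and 4 rose and 2 fell without HFCF liver 1. Fcna, which encodes ficolin A, a lectin of the complement system, fell by 0.60 (SE 0.16, adjusted p 0.0139) in control males and by 0.70 (SE 0.13, adjusted p 0.000708) in labelled-knockout males. Cd38, an NAD-degrading enzyme, rose in both, by 0.72 (SE 0.13, adjusted p 0.0026) and 0.57 (SE 0.08, adjusted p 6.32e-05), and in control females by 1.11 (SE 0.13, adjusted p 0.00446). Of 13 transcription factors that act in Kupffer cells, 6, 4, 6 and 1 rose and 0, 2, 1 and 1 fell in the 4 comparisons in the same order. With all livers, the factor counts in labelled-knockout females lay near the shares of all tested genes. In labelled-knockout females 4 rose and 1 fell without HF liver 3, and 3 rose and 2 fell without HFCF liver 1. Spi1, which encodes PU.1, rose by 0.92 (SE 0.16, adjusted p 0.00207) in control males and 1.34 (SE 0.22, adjusted p 0.00561) in control females. Irf8, a factor of the monocyte lineage, rose by 0.86 (SE 0.18, adjusted p 0.00501) and 1.14 (SE 0.19, adjusted p 0.00561). Rxra, the partner of the liver X receptor, fell by 0.44 (SE 0.08, adjusted p 0.000571) in labelled-knockout males; hepatocytes express it too.

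The same shares of all tested genes apply to the next lists. Among 15 signals and receptors of the Kupffer cell niche, 6, 7, 9 and 5 rose and 1, 0, 0 and 0 fell, with medians of 0.37, 0.53, 0.65 and 0.56. Without HF liver 3, 8 rose in labelled-knockout females. Csf1r, the receptor on which macrophages depend for survival, rose by 0.68 (SE 0.16, adjusted p 0.0071) in control males and by 1.41 (SE 0.18, adjusted p 0.00451) in control females. Ccr2, the receptor that brings monocytes out of the blood, rose by 1.36 (SE 0.21, adjusted p 0.00134) in control males and 1.94 (SE 0.45, adjusted p 0.0206) in labelled-knockout females. Dll4, the endothelial Notch ligand, rose by 1.02 (SE 0.12, adjusted p 0.00446) in control females. Of 11 tested genes for the uptake of dying cells and lipoproteins, 6, 7, 8 and 4 rose and 0 fell with all livers. In control males 9 rose and 1 fell without HFCF liver 1, in control females 9 rose and 1 fell without HF liver 1, and in labelled-knockout females 6 rose and 1 fell without HFCF liver 1. Axl, a receptor that takes part in the uptake of dying cells, rose by 0.86 (SE 0.16, adjusted p 0.00239) in control males and 1.73 (SE 0.28, adjusted p 0.00561) in control females.

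Markers of other liver cells were counted between the same diets. Of all tested genes, 13.0%, 21.6%, 16.9% and 8.44% rose and 9.31%, 20.0%, 13.8% and 6.01% fell in the 4 comparisons, in the order used above. Of 7 hepatocyte markers, 3 fell in control males, 5 in labelled-knockout males, 4 in control females and 0 in labelled-knockout females, and 0 rose. The 0 rested on HFCF liver 1, whose summed level of 113106 CPM lay within the range of the HF livers, 101212 to 122959 CPM: without it 5 of 7 fell. In control males 5 fell without HFCF liver 1. Their summed level ran from 67513 to 90408 CPM in HF control males and from 42647 to 67193 CPM in HFCF control males. All 4 bile duct markers rose in each comparison, with medians of 1.5, 1.33, 2.0 and 1.92. Of 7 stellate cell markers 4, 6, 3 and 6 rose, and of 8 sinusoidal endothelial markers 1, 2, 6 and 2 rose. With all livers, the sinusoidal counts in males lay near the shares of all tested genes. Without HF liver 1, 7 stellate cell markers rose in control females. Sinusoidal markers that rose numbered 2 in control males without HFCF liver 1, and in labelled-knockout females 4 without HFCF liver 1 and 1 without HF liver 3. Of 8 lymphocyte markers, 0, 2, 0 and 0 rose, with 1 in control males without HFCF liver 1 and 1 in control females without HF liver 1. Of the neutrophil and eosinophil genes that could be tested, 1 of 4, 3 of 3, 2 of 4 and 1 of 4 rose. Of the dendritic cell genes, 3 of 6, 3 of 6, 1 of 5 and 2 of 6 rose, and of the 2 testable genes of peritoneal, splenic and lymph node macrophages 1, 0, 2 and 0 rose. Without HFCF liver 1, 2 of 4 neutrophil and eosinophil genes and 2 of 2 of the last list rose in control males. Without HF liver 1, 2 of 5 dendritic cell genes rose in control females. In labelled-knockout females 1 of 2 of the last list rose without HFCF liver 1 or HF liver 3. The part of cell composition in the members' differences was not tested.

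The LF diet, given to females, offered a second reference for the same HFCF livers, so its contrasts share those libraries with the contrasts above. In control females 3 members rose and 1 fell from LF to HFCF, against 18.4% and 16.8% of all tested genes. Adgre1 went from 20.9, 25.8, 22.3 and 12.2 CPM to the HFCF values given above (log2 difference 1.69, SE 0.20, adjusted p 0.000521). Siglec1 and Cd5l rose by 1.53 (SE 0.24, adjusted p 0.00158) and 1.40 (SE 0.22, adjusted p 0.00146). Cd163 fell by 3.13 (SE 0.75, adjusted p 0.00995) from LF values of 0.648, 21.5, 22.9 and 11.6 CPM, of which the first lay below all HFCF livers. In labelled-knockout females 3 rose and 2 fell, against 8.26% and 3.74% of all tested genes. Adgre1 rose by 1.20 (SE 0.21, adjusted p 0.00531), Cd5l by 1.15 (SE 0.21, adjusted p 0.00754) and Folr2 by 0.73 (SE 0.21, adjusted p 0.0432). Cd163 fell by 2.32 (SE 0.47, adjusted p 0.0104) from 25.3, 18.4, 16.8 and 24.8 CPM, and Timd4 by 1.26 (SE 0.36, adjusted p 0.04) from 7.86, 8.55, 8.20 and 11.3 CPM, both without overlap. The calls of Folr2 and Timd4 were lost in 7 and 6 of 8 fits with 1 liver left out: Folr2 kept it without LF liver 4 alone, and Timd4 without HFCF liver 1 or 2 alone, with adjusted p values of up to 0.144 and 0.119. Siglec1, which did not pass there (0.71, SE 0.29, adjusted p 0.142), had a log2 difference of 0.90 (adjusted p 0.00948) without HFCF liver 1. Other liver markers moved in the same contrasts. All 4 bile duct markers rose in both genotypes, 6 of 7 stellate cell markers rose in controls and 3 in labelled knockouts, and 14 and 13 of 16 common macrophage genes rose. Col1a1, a collagen gene, rose by 2.90 (SE 0.37, adjusted p 0.000687) in controls. Of 7 hepatocyte markers 5 fell in controls, Apoc3 by 1.23 (SE 0.12, adjusted p 0.00032). In labelled knockouts 1 fell, and 6 without HFCF liver 1. Their part in the members' differences was not tested.

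Between the HF and LF diets no member passed the test in females. In controls 0 of 9 were called and 0 had an unadjusted p under 0.05 (edgeR quasi-likelihood; the DESeq2 Wald test also called 0), where 0.696% of all genes were called. In labelled knockouts 0 of 9 were called, again with 0 at an unadjusted p under 0.05 and 0 by the Wald test, where 0.155% of all genes were called. The largest absolute log2 difference in controls was -0.53, and in labelled knockouts it was 1.97, for Marco, which rested on HF liver 3.

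The comparison of labelled knockouts with controls asks whether Cre in hepatocytes moved markers of a cell that the TBG promoter does not target. Most members had log2 differences above 0 in males on both diets and in females on the LF and HF diets. Their medians were 0.46 and 0.45 in HF and HFCF males, and 0.10 and 0.19 in LF and HF females. No member was called in those females. The members vary together, so their signs are not independent. In males Clec4f passed the test on both diets. On the HF diet Clec4f ran from 51.3 to 108 CPM in controls and from 83.0 to 158 CPM in labelled knockouts (median 134), with overlap. The means differed 1.48-fold (log2 difference 0.56, SE 0.18, adjusted p 0.0412). It was the 1 member called, against 8.57% of all tested genes called higher. On the HFCF diet controls held 72.4 to 132 CPM and labelled knockouts 114 to 174 CPM (median 142), a 1.52-fold difference of the means (log2 0.60, SE 0.13, adjusted p 0.0274). It was again the 1 member called, against 0.933% of all genes. Both calls were fragile. With 1 liver left out, the call on the HF diet held in 4 of 12 fits, those without control 1, 2 or 5 or labelled knockout 4, with a log2 difference of 0.43 to 0.66 and an adjusted p of up to 0.0944. The call on the HFCF diet held in 5 of 12 fits, those without control 1 or 2 or labelled knockout 2, 3 or 4, with 0.54 to 0.73 and an adjusted p of up to 0.0711. With all 10 groups in one fit neither call passed (adjusted p 0.0528 on the HF diet and 0.129 on the HFCF diet). The authors' deposited table gave Clec4f an adjusted p of 0.0549 on the HF diet and 0.00123 on the HFCF diet.

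The other members did not pass in males. On the HF diet the log2 differences were 1.76 for Marco (SE 0.72, adjusted p 0.103), 1.33 for Cd163 (SE 0.53, adjusted p 0.0956) and 0.90 for Timd4 (SE 0.52, adjusted p 0.246), and Cd5l (0.08) and Adgre1 (-0.17) were near 0. On the HFCF diet they were 1.02 for Timd4, 1.14 for Marco and 1.15 for Cd163. Male HFCF control 1 held 8.75 CPM of Cd163, and without it the Cd163 difference was 2.81 (adjusted p 0.00364). Without HFCF control 2, at 47.0 CPM of Vsig4, the Vsig4 difference was 0.66 (adjusted p 0.0343) where it was 0.45 (adjusted p 0.291) with it. In the same HF males, 8 of 14 tested monocyte and lipid-associated macrophage markers were lower in the labelled knockouts, 6 of 7 hepatocyte markers were higher, 4 of 7 stellate cell markers were lower and 1 of 16 common macrophage genes was lower, where 9.88% of all tested genes were called lower. Their part in the members' levels was not tested. Col3a1, a collagen gene, fell by 1.05 (SE 0.15, adjusted p 0.000207), Gpnmb by 1.76 (SE 0.28, adjusted p 0.000417) and Mmp12, a macrophage elastase, by 1.97 (SE 0.34, adjusted p 0.000792). Fcna rose by 0.90 (SE 0.16, adjusted p 0.00107) on the HF diet and 0.81 (SE 0.13, adjusted p 0.00308) on the HFCF diet.

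In females no member was called between genotypes. The log2 differences were above 0 for 8 of 9 members on the LF diet, 8 of 9 on the HF diet and 5 of 9 on the HFCF diet. On the LF diet 0 of 9 passed edgeR's test, 0 had an unadjusted p under 0.05 and the DESeq2 Wald test called 0, where 0% of all genes were called. On the HF diet the same 3 numbers were 0, 0 and 0, where again 0% of all genes were called. On the HFCF diet 0 were called, 3 had an unadjusted p under 0.05 and the Wald test called 0, where 0.0534% of all genes were called. Those 3 were Siglec1 (log2 difference -0.76, SE 0.27), Adgre1 (-0.50, SE 0.18) and Cd163 (1.43, SE 0.57), each with an adjusted p of 0.547. Without labelled-knockout liver 1 the difference was -0.54 for Siglec1 and 0.42 for Cd163. The Marco difference of 2.46 (SE 1.23, adjusted p 0.656) in HF females was 0.31 without labelled-knockout liver 3.

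**Figure D4:**
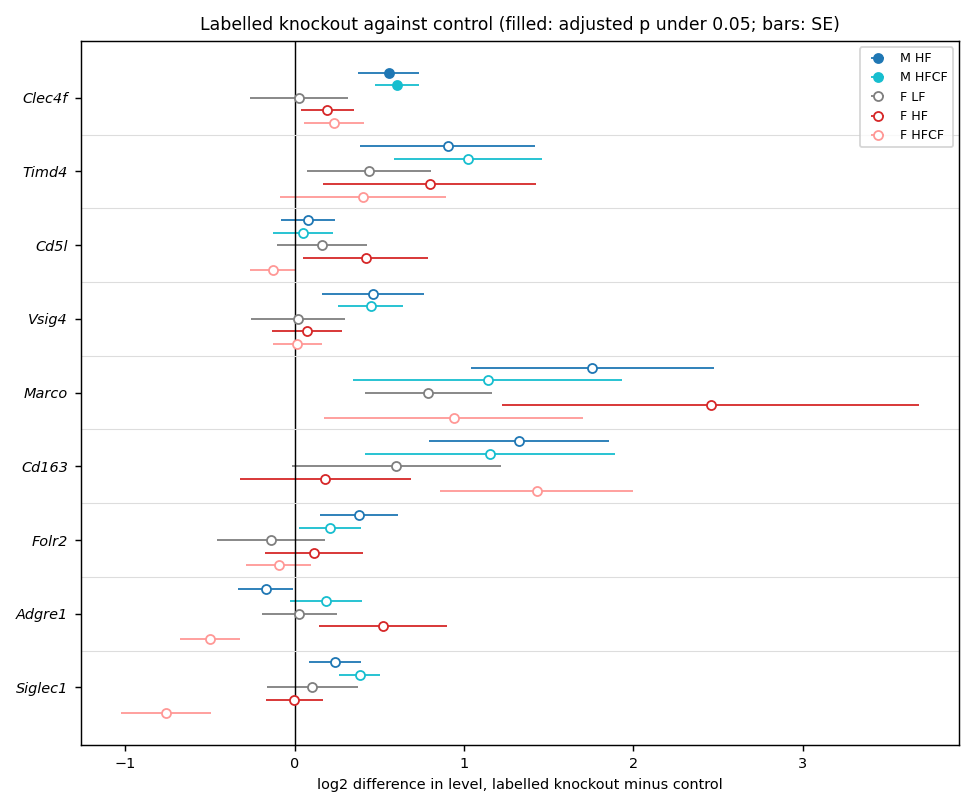
Log2 difference in level, labelled knockout minus control, with its SE, for the 9 members in the 5 sex and diet groups. The filled points, which passed an adjusted p of 0.05, are Clec4f in HF males (0.56) and HFCF males (0.60).

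Males and females were compared among controls. Sex and any difference in handling of the male and female cohorts cannot be told apart, here or in the interactions with sex below. On the HFCF diet 2 members were lower in males, against 1.34% of all tested genes lower. Siglec1 did not overlap between the sexes, with 19.0 to 33.8 CPM in males and 43.1 to 56.3 CPM in females (log2 difference -0.87, SE 0.14, adjusted p 0.00507). Clec4f was lower in males too (log2 difference -0.77, SE 0.15, adjusted p 0.0186), and its adjusted p was 0.0836 and its difference -0.66 without female HFCF control 1. On the HF diet 0 members passed edgeR's test, 2 had an unadjusted p under 0.05 and the DESeq2 Wald test called 1, Adgre1, with a log2 difference of 0.58 and an adjusted p of 0.0428. Of all genes 18.1% were called there. Without female HF control 1, edgeR called 2 members: Clec4f (log2 difference -0.63, adjusted p 0.0362) and Adgre1 (0.70, adjusted p 0.0306).

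With all livers, none of the 7 interaction tests called a member. The genotype effect against diet in males (HFCF against HF) called 0 of 9 members and 1.56% of all genes, with 0 members at an unadjusted p under 0.05. The same in females called 0 of 9 and 0% of all genes, with 2 members, Adgre1 and Siglec1, at an unadjusted p under 0.05. The genotype effect against diet in females between HF and LF called 0 members and 0% of genes, with 0 at an unadjusted p under 0.05. The genotype effect against sex called 0 members and 0% of genes on each diet, with 0 members on the HF diet and 2, Adgre1 and Siglec1, on the HFCF diet at an unadjusted p below 0.05. For Siglec1 on the HFCF diet the interaction was 1.15 (SE 0.28, adjusted p 0.429), and the DESeq2 Wald test gave it an adjusted p of 0.0499; in the 6 other interactions the Wald test called 0. The HFCF against HF effect against sex called 0 members and 0.00646% of genes in controls, with Adgre1 and Siglec1 at an unadjusted p under 0.05, and 0 members and 0.0130% of genes in labelled knockouts, with 0 members at an unadjusted p under 0.05. In controls Adgre1 had an interaction of -1.09 (SE 0.33, adjusted p 0.196), the rise being smaller in males. Without female HF control 1 the interaction was -1.20 for Adgre1 (adjusted p 0.033) and -0.80 for Siglec1 (adjusted p 0.0413).

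The members fell into loose groups by how they varied together. These Pearson correlations of log2(CPM + 0.5) are descriptions over the 48 livers, whose libraries, diets and group means the points share. Across all livers Timd4 correlated with Marco at 0.88 and with Cd163 at 0.79, and Cd5l correlated with Adgre1 at 0.94. Cd163 ran opposite to Adgre1 (-0.62) and to Cd5l (-0.58). After each group's mean was subtracted, Timd4 and Marco still correlated at 0.82, Cd5l and Adgre1 at 0.85, and Timd4 and Cd163 at 0.67, while Cd163 with Adgre1 was -0.21. Clec4f correlated with Folr2 at 0.68, Timd4 at 0.65 and Cd163 at 0.63 within groups, and with Adgre1 at 0.42. The summed markers of monocytes and lipid-associated macrophages had a within-group correlation of -0.54 with Cd163, -0.41 with Timd4, -0.32 with Marco, -0.09 with Clec4f and 0.42 with Adgre1. Over all livers the same sum correlated at -0.77 with Cd163, -0.57 with Timd4, -0.56 with Marco, 0.01 with Clec4f and 0.77 with Adgre1. The summed hepatocyte markers correlated within groups at -0.53 with Siglec1, 0.43 with Cd163, 0.36 with Marco, 0.35 with Clec4f and 0.34 with Timd4, and between -0.14 and 0.10 with the other 4. Over all livers the hepatocyte sum correlated at 0.79 with Cd163, 0.70 with Timd4, 0.66 with Marco and 0.33 with Clec4f. It correlated at -0.69 with Adgre1, -0.67 with Siglec1, -0.66 with Cd5l, -0.40 with Folr2 and -0.002 with Vsig4. The part of hepatocyte RNA in the members' levels was not tested.

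**Figure D5:**
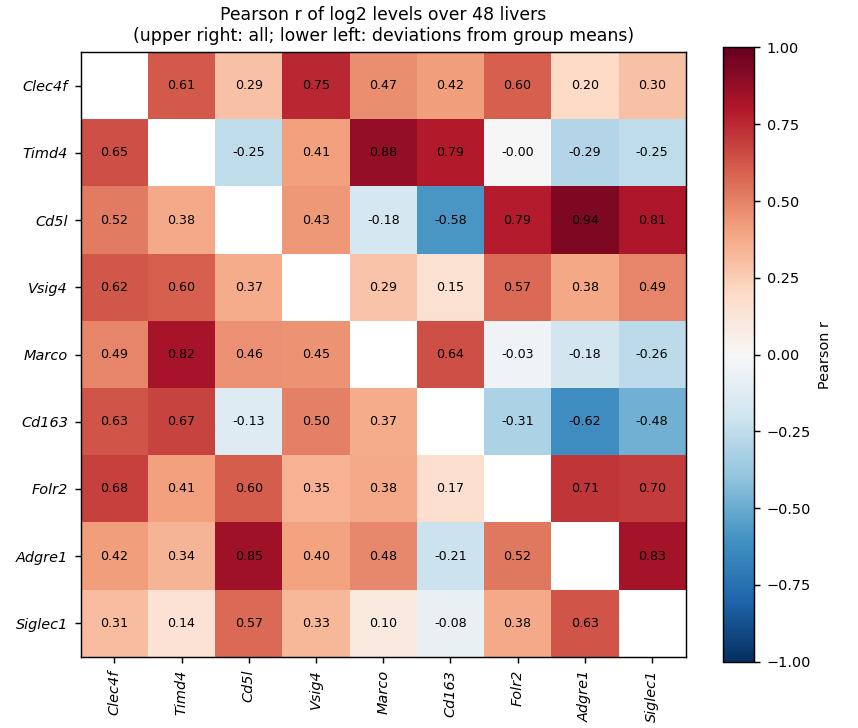
Pearson r between each pair of members over the 48 livers, from log2 levels (upper right) and from deviations from the 10 group means (lower left). Timd4 with Marco (0.88 and 0.82) and Cd5l with Adgre1 (0.94 and 0.85) are the strongest pairs of each triangle.

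Outside the members, the 3 genes with the highest correlation to each were sought among the 13436 genes whose mean reached 1 CPM. For Adgre1 they were Csf1r (0.96), the proteoglycan gene Sdc3 (0.95) and Cybb (0.93), a subunit of the phagocyte oxidase. For Cd5l they were Csf1r (0.96) and the complement genes C1qb (0.95) and C1qc (0.95). Siglec1 lay nearest to Sdc3 (0.88), Csf1r (0.86) and the amino acid transporter gene Slc7a8 (0.85), and Folr2 to C1qa (0.78), Il18bp (0.78) and Csf1r (0.78). Timd4 lay nearest to the B cell chemokine gene Cxcl13 (0.83), to Nr1h3 (0.82), which encodes the liver X receptor alpha, and to Fcna (0.80). Marco shared Cxcl13 (0.80) and Nr1h3 (0.76) with it and added Fam47e (0.74). Clec4f lay nearest to Cfp (0.76), which encodes properdin, Pcolce2 (0.73) and Tent5a (0.67), and Vsig4 to Lilra5 (0.71), Pcolce2 (0.65) and Cfp (0.62). Cd163 differed from the rest in that its nearest genes were those of hepatocyte transporters, Slc10a1 (0.86), the bile acid importer, and Slc17a3 (0.85), with the complement protease-like gene C1rl (0.85). A correlation with hepatocyte genes was not particular to it: the summed hepatocyte markers correlated at 0.79 with Cd163, 0.70 with Timd4 and 0.66 with Marco.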

How the data were processed

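Whole-liver RNA from 48 mice was sequenced, with libraries that do not keep strand, per the labels' protocols. The submitters' processing notes name STAR 2.6.1, HTSeq 0.6.1 and the build GRCm38; the annotation is not given in the sources used here. Each of 11 deposited tables holds, per the file headers, raw read counts, FPKM and a normalised signal per gene, with the authors' log2 fold changes and p-values for 1 comparison. Within a library and table the deposited signal was proportional to the count; it was used only in that check. The counts were joined by gene identifier. None of 1341082 repeated values differed, and 0 columns had no sample.

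Counts were tested with edgeR 4.0.16 (R 4.3.3): filterByExpr, TMM scaling, the quasi-likelihood F test on the 2 groups compared (4 for interactions) and Benjamini-Hochberg adjustment over all genes tested. Genes were called at an adjusted p under 0.05, and the SE is the log2 difference divided by the root of F. CPM used TMM factors over the 48 libraries. Ratios used log2(CPM + 0.5) and exact permutation tests (scipy 1.17.1). The alternatives were DESeq2 1.42.0 size factors and its Wald test, no filter on low counts, all groups in one fit, a replicate block, each mouse left out in turn, another pseudocount, and Csf1r with Cd68 in place of Adgre1. Some of the fits were tested on simulated data, with the same fixed spread for every gene and changes in well-counted genes. Those data do not cover members with few reads or a wide spread. Depth was 15338239 to 22072884 reads on genes; CPM of a few reads carry a large counting error.

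All 9 members are named. Of the 14 other lists (133 genes, all found), up to 4 called genes with the smallest adjusted p are named per comparison. Some genes, such as Csf1r, Ccr2, Mertk, Msr1, Stab1 and Stab2, belong to several lists, so the counts over lists are not independent. The correlations with summed marker levels, and the choice of promoter windows printed, were added after values were seen. The members and lists were chosen with earlier results of these data known. Replicates are separate mice. Comparisons share groups: each HFCF, HF or control group enters several of them.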

Additional observations from a re-analysis of the deposited data

Results flagged for a closer look

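In 10 of 90 sets of 1 member in 1 group, a single liver lay far from the others of its group relative to the group's range. The cut-offs used give about 1 in 20 such sets by chance if values are independent and normally distributed. Members such as Marco and Cd163 vary widely and the same livers recur over members. The 10 sets are therefore not a test of an excess. Cd163 stood at 8.75 CPM in male HFCF control 1, where the other 5 held 0.214 to 1.55 CPM. It stood at 11.2 CPM in labelled-knockout HFCF female 1, where the other 3 held 1.88 to 2.38 CPM. Marco stood at 146 CPM in labelled-knockout HF female 3 (others 2.32 to 25.0 CPM) and at 44.4 CPM in labelled-knockout HF male 5 (others 2.59 to 12.4 CPM). Vsig4 was high in 3 livers: 47.0 CPM in male HFCF control 2 (others 19.5 to 27.2 CPM), 55.0 CPM in labelled-knockout HFCF male 1 (others 30.5 to 38.6 CPM) and 49.5 CPM in female HF control 3 (others 26.9 to 28.2 CPM). Cd5l was 383 CPM in that same labelled-knockout HFCF male 1 (others 225 to 261 CPM) and 71.1 CPM in male HF control 6 (others 128 to 158 CPM). Folr2 was 2.04 CPM in labelled-knockout HF female 2 (others 2.79 to 2.88 CPM). In male HFCF control 1 and labelled-knockout HFCF female 1 the summed monocyte and lipid-associated macrophage markers were also the lowest of their groups, at 309 and 460 CPM, and labelled-knockout HF female 3 had the highest summed common macrophage genes of its group, at 1137 CPM. The part of cell composition in these values was not tested.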

How the results depend on the processing

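The authors' deposited adjusted p values gave other member counts for HFCF against HF. At under 0.05, 4 rose and 0 fell in control males, and 5 rose and 2 fell in labelled-knockout males. In females 5 rose and 1 fell in controls, and 3 rose and 1 fell in labelled knockouts. No member's called difference changed sign under any alternative run. Of the 198 single-member values, DESeq2's size factors removed 1 call; its Wald test added 8 and removed 1; no filter added 6 and removed 1; all groups in one fit added 7 and removed 7. Leaving out 1 mouse added 29 calls and removed 55 in 2484 values, and 2400 stayed on their side of the threshold. The number of members called moved by over 1.5 times as follows. In the HFCF against HF comparison it was 5 in place of 8 in labelled-knockout males with all groups in one fit, and in labelled-knockout females 4 by the Wald test, 4 with no filter and 5 with all groups in one fit, in place of 2. For labelled knockout against control it was 0 in place of 1 on both diets in males with all groups in one fit. The Wald test called 1 in place of 0 between the sexes among HF controls and for the genotype by sex interaction on the HFCF diet. With 1 mouse left out the counts ran from 0 to 2 for labelled knockout against control in HF males and in HFCF males, from 2 to 6 for HFCF against HF in control males, from 1 to 5 in labelled-knockout females, from 3 to 5 for HFCF against LF in labelled-knockout females, from 0 to 2 between the sexes among HF controls, from 1 to 3 among HFCF controls, and from 0 to 2 for the diet by sex interaction in controls. With the mean of Csf1r and Cd68 in place of Adgre1, the ratio differences of -0.73 (Clec4f) and -1.58 (Timd4) in control males and -2.15 (Timd4) in labelled-knockout females passed, each with an adjusted exact permutation p of 0.0457. With 1 mouse left out, the ratio difference in control males ran from -0.72 to -0.43 for Clec4f and from -1.75 to -1.13 for Timd4. It passed for both without HF control 3 or HFCF control 1. The counts over gene lists without each of the 4 livers that stood apart were added after seeing the data. The cause of these shifts was not tested.

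The replicate numbers did not pair the mice: same-numbered deviations correlated at -0.29 to 0.46 over the comparisons, and in no comparison was every pair over 0.1 or did every mouse correlate best with its own number. With the replicate block, 0 members in place of 5 were called for HFCF against HF in control females, 0 in place of 1 for labelled knockout against control in HFCF males, 1 in place of 0 between the sexes among HF controls, and 1 in place of 2 among HFCF controls. With the replicate block the ratios were tested by flipping the signs of the differences between same-numbered mice. With so few pairs this test cannot give an adjusted p under 0.05 over the 8 ratio tests. In labelled-knockout males the ratio differences were -0.87 for Clec4f and -2.01 for Timd4, with an adjusted exact sign-flip p of 0.125 each. That run therefore cannot show whether the ratio calls depend on the block. Of the 198 single-member values the block added 4 calls and removed 12.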
